A study of Mus musculus with 8 samples.

Results

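miR-320-3p and miR-484 are 2 of the 862 miRNA names listed in small RNA libraries of mouse liver, and they were taken by name from the 8 deposited tables, with a level of 0 where a table does not list the name. Both were listed in all 8 libraries. The mice were male wild-type C57BL/6J animals, 8 weeks old at the start, that were housed singly and assigned at random to a diet for 12 weeks. One group was fed ad libitum (AL), and the other received caloric restriction (CR) of 20% in the first week and of 40% in the following 11 weeks. Each diet was represented by 1 whole-liver library, made from an equal pool of 3 RNA samples, and by 3 libraries of liver mitochondria isolated by differential centrifugation as mitoplasts, that is, with the outer membrane removed. Nothing in the labels ties the mitochondrial replicates to separate animals, and every p-value reflects only how far these libraries scatter, which may be technical.

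Most miRNAs are cut out of long transcripts in the nucleus by the Microprocessor, which consists of Drosha and DGCR8, and are then finished by Dicer in the cytoplasm. miR-320 and miR-484 are known exceptions that need Dicer but not the Microprocessor, because each hairpin lies at the start of its own short transcript. For miR-320 the hairpin keeps the cap of the transcript at its 5′ end, is exported through exportin 1 and yields mainly the strand from the 3′ arm. miR-484 has been described as a repressor of Fis1, a factor of mitochondrial fission, and miR-320 as a regulator of glycolysis and insulin signalling.

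The mature sequences are shown because the seed, bases 2 to 8, sets which transcripts a miRNA can pair with, and because they show how different the pair is in base composition. Seeds are in capitals, and sequences are as deposited.
miR-320-3p: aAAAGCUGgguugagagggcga
miR-484: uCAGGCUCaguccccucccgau
Each has 22 bases. No other name in the tables shares either seed, and the nearest listed name is 7 base edits away for miR-320-3p and 8 for miR-484. miR-320-3p is rich in purines, with 10 G, 7 A and 5 pyrimidines, whereas miR-484 has 15 pyrimidines, of which 10 are C. The GC content was 54.5% for miR-320-3p and 63.6% for miR-484, against a median of 47.8% over the 862 names. A share of C as high as that of miR-484 was found in 3.71% of the names.

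Positions are on GRCm38 (GENCODE M21), whereas the reads were mapped to mm9. Mir320 is on chromosome 14 at 70443510 to 70443591, plus strand, in no annotated gene and 63 bases from the start of Polr3d, which is read in the opposite direction and codes for a subunit of RNA polymerase III. Mir484 is on chromosome 16 at 14159626 to 14159692, plus strand, 3583 bases before the start of Nde1. On the minus strand it is covered by Marf1, where the last 19 bases of the hairpin overlap an exon of the transcript Marf1-202 and the rest is intronic. The RefSeq table (GRCm38.p6) held miR-484, whose hairpin is shown with the mature miRNA in capitals.
Mir484 hairpin: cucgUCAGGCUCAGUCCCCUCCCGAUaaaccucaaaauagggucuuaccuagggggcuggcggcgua
Mature miR-484 spans bases 5 to 26 of the 67, on the 5′ arm, whereas miR-320-3p comes from the 3′ arm of its hairpin. Among all GENCODE M21 transcripts, mitochondrial ones included, each mature sequence was found in its own hairpin gene alone, on either strand.

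Levels are given in RPM, the reads of a name per 1000000 reads assigned to all listed miRNAs, and the whole reads behind them were recovered from the deposited values. The pools held 2431564 (AL) and 3242002 (CR) miRNA reads and the mitochondrial libraries 1070762 to 1577691. The hepatocyte miRNAs miR-122, miR-192, miR-194 and miR-148a took 46.4% to 70.3% of the reads of each library, so the tissue label was borne out. The miRNA tables hold no marker of mitochondria, so that label was not checked. miR-122-5p alone, which sets much of the RPM scale, lay between 378919 and 580803 RPM in 5 mitochondrial libraries and at 251755 RPM in CR mitochondria replicate 2. In the pools it was at 254251 RPM (AL) and 262739 RPM (CR).

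miR-484 was much lower in mitochondria than in whole liver, whereas miR-320-3p was at similar levels in both. miR-484 was at 112 RPM in the AL pool (272 reads) and 76.8 RPM in the CR pool (249 reads). In AL mitochondria it was at 18.5, 9.13 and 15.5 RPM in replicates 1 to 3, from 20, 10 and 22 reads. In CR mitochondria it was at 10.8, 3.17 and 1.87 RPM, from 13, 5 and 2 reads. Every mitochondrial library therefore lay below both pools, and the highest of the 6 was at 18.5 RPM. This was so for 113 of the 417 tested miRNAs (27.1%).

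miR-320-3p was at 151 RPM in the AL pool (366 reads) and 72.5 RPM in the CR pool (235 reads). In AL mitochondria it was at 119, 193 and 136 RPM, from 129, 211 and 193 reads. In CR mitochondria it was at 80.8, 78.0 and 98.1 RPM, from 97, 123 and 105 reads. The AL pool lay inside the range of AL mitochondria and the CR pool just below that of CR mitochondria. The strand from the other arm, miR-320-5p, had 1 read in the AL pool and 0 in the other 7 libraries, where a count of 0 allows up to 0.925 RPM in the CR pool and 1.90 to 2.80 RPM in mitochondria (3 reads; counting error only).

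**Figure D1:**
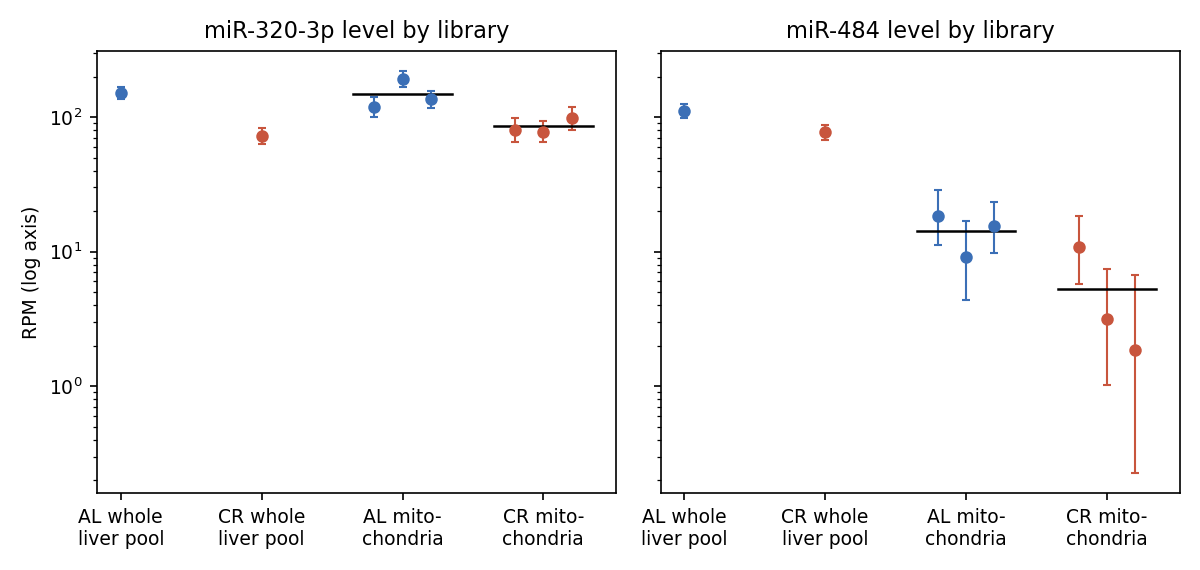
Level of miR-320-3p (left) and miR-484 (right) in RPM on a log axis, 1 point per library, with exact 95% Clopper-Pearson intervals that cover counting error only; horizontal lines are means of 3 libraries. miR-320-3p stays between 72.5 and 193 RPM in all 8 libraries, whereas miR-484 goes from 76.8 RPM or more in the pools to 18.5 RPM or less in mitochondria.

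The fraction comparison asked which miRNAs of whole liver are found with mitochondria at other levels. By limma-trend on log2(RPM + 1) over the 8 libraries, with a term for diet, miR-484 was 10.7-fold lower in mitochondria (log2 fold change -3.42, SE 0.51, adjusted p = 5.29e-05), rank 7 from the lowest of 417 tested miRNAs. At the threshold of an adjusted p of 0.05, 134 of the 417 passed (32.1%), of which 90 were lower (21.6%) and 44 higher (10.6%). For miR-320-3p the log2 fold change was 0.09 (SE 0.33, 95% interval -0.60 to 0.79, adjusted p = 0.843), which leaves room for changes of that size in either direction. The median over all tested miRNAs was -0.31, so relative to it miR-484 stood at -3.11 and miR-320-3p at 0.40. In plain means, the mitochondrial RPM of miR-484 was 12.8% of the pool RPM under AL (14.4 ± 4.76 RPM, SD, n = 3). Under CR it was 6.88% (5.29 ± 4.84 RPM, SD, n = 3). For miR-320-3p it was 99.1% under AL (149 ± 38.6 RPM, SD, n = 3) and 118% under CR (85.6 ± 10.9 RPM, SD, n = 3). RPM is relative to the miRNA reads of a library, so these percentages are not amounts of RNA per fraction.

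With 1 pool per diet, the fit assumes that the pools vary like the mitochondrial libraries. The same holds within each diet, where 3 libraries stand against 1 pool and the spread comes from mitochondria alone, and miR-484 had -2.93 under AL (limma adjusted p = 0.0137) and -3.90 under CR (0.00201). Over 18 alternatives, of which leaving out either pool repeats these 2 values, its log2 fold change ranged from -3.90 to -2.86 with an adjusted p of at most 0.0150. miR-320-3p did not pass in any of its 18 alternatives (adjusted p 0.225 to 0.982). Its log2 fold change was -0.043 under AL alone and reached 0.55 in edgeR with TMM factors, which rescale the libraries to each other. On other scales the calls were 59 higher and 72 lower with TMM factors and 65 and 63 with miR-122 left out of the totals. With another model as well as another scale they were 78 and 71 in DESeq2 and 97 and 70 in edgeR. On the deposited scale with no filter on low levels they were 29 and 110.

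**Figure D2:**
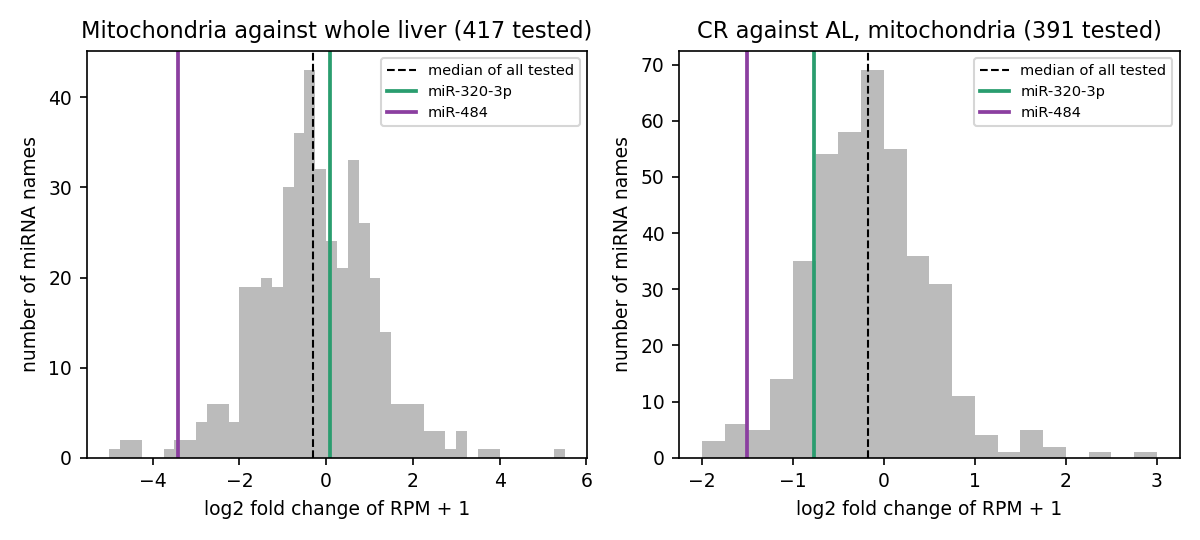
Number of miRNA names by log2 fold change of RPM + 1, for mitochondria against whole liver (left) and CR against AL in mitochondria (right); the dashed line is the median of all tested and coloured lines mark miR-320-3p and miR-484. On the left miR-484 lies at -3.42, far out in the lower tail, and miR-320-3p at 0.09 near the centre, while on the right they lie at -1.51 and -0.77, both below the median.

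Some cell type markers also differed between the fractions. The bile duct epithelial list (miR-200a, miR-200b, miR-200c, miR-141 and miR-429; 8 names) took 0.0769% and 0.0791% of the reads in the pools and 0.0242% to 0.0510% in mitochondria. The endothelial miR-126a (2 names) took 1.96% and 1.50% in the pools and 0.669% to 1.81% in mitochondria, with CR replicate 2 the highest. By limma 2 of 7 tested bile duct names and 1 of the 2 endothelial names were lower in mitochondria, and none was higher. Among all tested miRNAs 21.6% were lower and 10.6% higher, and with so few names these counts do not set the lists apart. The summed share of the stellate cell and fibroblast list (miR-199a, miR-214, miR-143 and miR-145a; 8 names) was 2.56% to 4.74% in mitochondria against 1.47% and 1.59% in the pools. Its members did not move as one: miR-143-3p was higher by limma (log2 fold change 1.48, adjusted p = 0.00386), miR-199a-5p, miR-145a-3p and miR-145a-5p were lower (-1.59, -1.42 and -1.25), and 4 did not pass. Of the 8 hepatocyte names miR-192-3p was higher (3.08), miR-194-2-3p and miR-148a-5p were lower (-1.99 and -1.64), and 5 did not pass. None of the 6 tested leukocyte names (of miR-142a, miR-223, miR-150 and miR-155) passed. The same held for the 5 erythroid names (of miR-451a, miR-144 and miR-486a). At 0 in a group was 1 bile duct name, in the AL pool. Of the leukocyte names 2 were at 0 in the CR pool and 1 in each mitochondrial group. Fewer cells of a type and less RNA per cell cannot be told apart here, and the part of these cell types in the level of miR-484 was not tested.

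The ratio of both miRNAs within a library does not depend on how libraries are scaled. In the pools they were near equal, with 1.35 reads of miR-320-3p per read of miR-484 under AL and 0.944 under CR. In AL mitochondria the ratio was 6.45, 21.1 and 8.77, and in CR mitochondria 7.46, 24.6 and 52.5. All 6 mitochondrial libraries thus lay above both pools. The mean log2 ratio was 3.91 ± 1.19 (SD, n = 6) in mitochondria against 0.43 and -0.08 in the pools, a difference of 3.74 (exact permutation test, two-sided, p = 0.0714, the smallest that 6 against 2 libraries allow). This test was added after the values were seen. Between the diets in mitochondria the mean log2 ratio was 4.41 ± 1.42 (SD, n = 3) under CR and 3.41 ± 0.89 (SD, n = 3) under AL. The difference of 1.004 (exact permutation test, two-sided, p = 0.4, with 0.1 the smallest that 3 against 3 allow) ranged from 0.35 without CR replicate 3 to 1.76 without CR replicate 1.

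**Figure D3:**
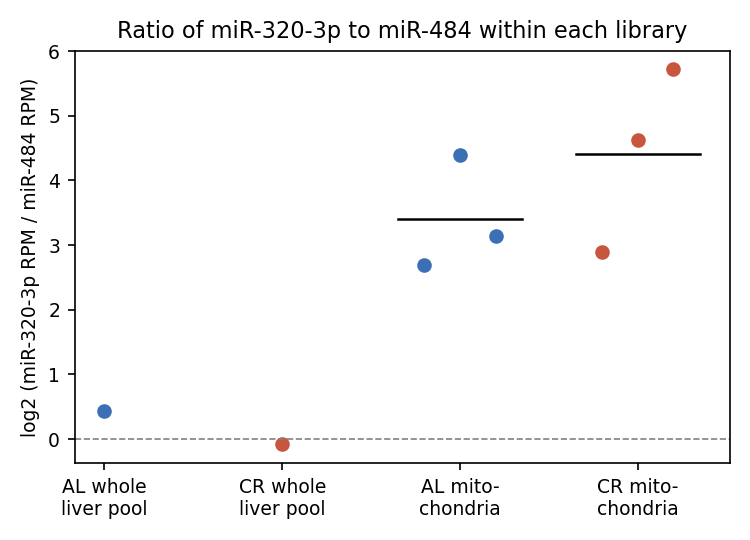
log2 of the RPM of miR-320-3p over that of miR-484, 1 point per library, with horizontal lines at the means of 3 libraries and a dashed line at equal levels. The pools sit at 0.43 and -0.08 and the 6 mitochondrial libraries between 2.69 and 5.71, with the diets overlapping.

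The main question of the series is which mitochondrial miRNAs differ with the diet. Both miRNAs averaged less under CR, and neither passed. The mitochondrial level of miR-320-3p under CR was 57.4% of that under AL, and all 3 CR libraries (78.0 to 98.1 RPM) lay below all 3 AL libraries (119 to 193 RPM). Ranges that did not overlap were found for 76 of 391 tested miRNAs (19.4%), and for 56 (14.3%) with CR lower. By limma-trend the log2 fold change of miR-320-3p was -0.77 (SE 0.34, 95% interval -1.50 to -0.04, adjusted p = 0.329), and an exact permutation test (two-sided) gave p = 0.1, the smallest possible. The level of miR-484 under CR was 36.8% of that under AL, and the ranges overlapped, since CR replicate 1 (10.8 RPM) lay above AL replicate 2 (9.13 RPM). Its log2 fold change was -1.51 (SE 0.56, 95% interval -2.68 to -0.34, adjusted p = 0.230), rank 9 from the lowest of 391, and the exact permutation test (two-sided) gave p = 0.2.

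At an adjusted p of 0.05, 2 of the 391 miRNAs passed by limma (0.512%), 1 higher (0.256%) and 1 lower (0.256%). Before adjustment 52 miRNAs (13.3%) stood under 0.05, of which 37 were lower (9.46%), with miR-484 at rank 25 and miR-320-3p at rank 46 of 391 by p. The median over all tested miRNAs was -0.17 and 0.00 with TMM factors. With TMM factors miR-320-3p had a log2 fold change of -0.56 (unadjusted p = 0.133 by limma) and miR-484 of -1.32 (0.0277). Relative to the median of all tested on the deposited scale they stood at -0.60 and -1.33. The calls were 4 higher and 1 lower with TMM factors, 5 and 2 in edgeR, 7 and 4 in DESeq2 and 3 and 1 with miR-122 left out of the totals. Both miRNAs stayed below 0 in all 15 alternatives (-0.92 to -0.55 for miR-320-3p and -2.10 to -0.98 for miR-484), with an adjusted p of at least 0.140. For miR-484, which rests on 2 to 22 reads per mitochondrial library, the log2 fold change was -2.10 without CR replicate 1 and -1.08 without CR replicate 3. The leukocyte list (miR-142a, miR-223, miR-150 and miR-155; 8 names, 1 of them at 0 in each mitochondrial group) summed to 0.0199% to 0.0264% of reads under CR against 0.0273% to 0.0422% under AL in the same libraries. None of its 6 tested members passed by limma, 5 had a log2 fold change below 0, and miR-150-5p stood at 1.02. The median over all tested miRNAs was below 0 as well. Of the stellate cell and fibroblast list 7 of 8 tested names lay below 0, as did 6 of 8 hepatocyte names. Of these, 1 passed as lower, miR-199a-3p (-1.64, limma adjusted p = 0.0141). All 6 tested bile duct names lay above 0, and none passed. The part of these cell types in the diet values was not tested.

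In the whole-liver pools both miRNAs were lower under CR. miR-320-3p stood at 0.482 of its AL level (95% exact interval 0.407 to 0.569), a 2.08-fold lower level and rank 15 from the lowest of the 243 names that reached 10 RPM in either pool. Of these 243, 19 were at least 2-fold lower (7.82%). miR-484 stood at 0.687 of its AL level (0.576 to 0.818), rank 72, where 63.8% of the 243 were below 1. The median log2 ratio was -0.22, and relative to it miR-320-3p stood at -0.84 and miR-484 at -0.32. With TMM factors the median was 0.09, 7 miRNAs were at least 2-fold lower and 20 at least 2-fold higher, against 19 and 13 on the deposited scale. miR-320-3p then stood at 0.596 of its AL level, and the interval of miR-484 reached from 0.713 to 1.01. These ratios compare 2 libraries, with no replicate check, and the intervals hold counting error only.

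The diet effects of both fractions were compared by the interaction of diet and fraction. With 1 pool per diet, the spread in this fit comes from the mitochondrial libraries alone. The fit therefore cannot show whether the diet effects agree between the fractions. For miR-484 the difference of the log2 diet effects, mitochondria minus whole liver, was -0.97 (SE 1.06, 95% interval -3.21 to 1.26, limma adjusted p = 0.998), and for miR-320-3p it was 0.27 (SE 0.70, 95% interval -1.19 to 1.73, adjusted p = 0.998). In limma 0 of 417 miRNAs passed, with 5 at an unadjusted p under 0.05, and in edgeR and DESeq2 0 passed as well, with 18 and 8.

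Ordered by level, miR-320-3p ran from the AL pool (151 RPM) and AL mitochondria (mean 149 RPM) to CR mitochondria (85.6 RPM) and the CR pool (72.5 RPM), and within each of these pairs the levels lay close to or within the spread of the replicates. miR-484 ran from the AL pool (112 RPM) and the CR pool (76.8 RPM), a long way down to AL mitochondria (14.4 RPM) and CR mitochondria (5.29 RPM), which overlapped. Within its library miR-320-3p ranked between 78 and 120 by level in all 8. miR-484 ranked 105 and 115 in the pools and 180 to 318 in mitochondria.

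Other miRNAs that bypass a step of the usual route were followed in 4 short lists, in all 14 listed names with the members among them. Of the 12 others, 6 had enough reads to be tested between the fractions and 5 between the diets, and none of them passed in either comparison, where 32.1% and 0.512% of all tested miRNAs did. Their medians were -0.24 and 0.16, against -0.31 and -0.17 over all tested miRNAs. With so few calls between the diets, the count there says nothing about the lists. The relatives of miR-344, whose precursor is also capped, were nearly absent, with at most 3 reads per library for miR-344-3p and 1 read in all for miR-344b-3p and for miR-344d-3p.

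Among mirtrons, which splicing cuts out in place of Drosha, miR-1981-5p was the most abundant. It was at 28.0 and 46.3 RPM in the pools and 59.0 ± 39.8 RPM (SD, n = 3) in AL and 70.0 ± 45.7 RPM (SD, n = 3) in CR mitochondria, with a log2 fold change between the fractions of 0.51 (SE 0.59, limma adjusted p = 0.521). The opposite arm, miR-1981-3p, had 17 and 28 reads in the pools and 2 to 8 in mitochondria (-1.20, SE 0.51, adjusted p = 0.0819). miR-877-5p, miR-877-3p and miR-1982-3p had at most 6 reads in any library.

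miR-1839-5p comes from a guide RNA of the nucleolus or Cajal body and was at 523 and 436 RPM in the pools. It averaged 606 ± 34.4 RPM (SD, n = 3) in AL and 371 ± 42.3 RPM (SD, n = 3) in CR mitochondria, with log2 fold changes of -0.01 between the fractions and -0.71 with the diet (limma adjusted p = 0.974 and 0.329). Its other arm, miR-1839-3p, had 0.62 and -1.53 (adjusted p = 0.286 and 0.108). The erythroid miR-451a, which is cut by Ago2 in place of Dicer, had -0.47 and 0.16 (adjusted p = 0.403 and 0.922). Between the fractions 1 of the 8 tested names of these lists passed, miR-484, where 32.1% of all tested miRNAs did.

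**Figure D4:**
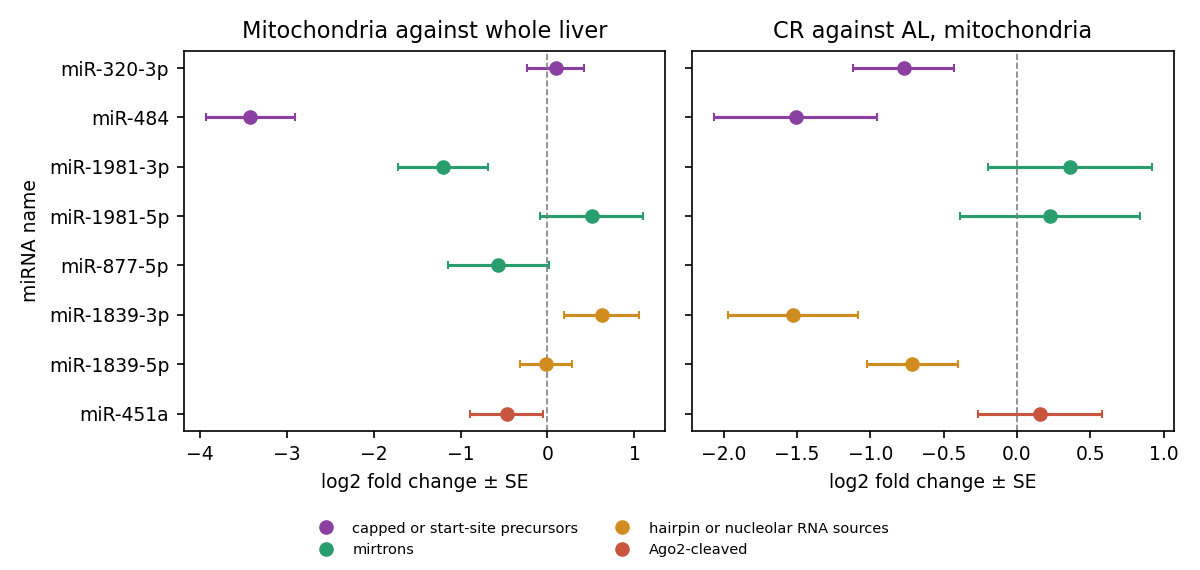
Fitted log2 fold change of RPM + 1 with its SE for the tested names of the 4 lists, between the fractions (left) and between the diets in mitochondria (right), coloured by list. On the left miR-484 stands at -3.42, apart from the other 7 names, which lie between -1.20 and 0.62, and on the right no name passed.

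The miRNAs with the most similar pattern were sought by Pearson's r of log2(RPM + 1) among 232 other names with a mean of at least 10 RPM. The libraries share their totals, and r is given as a description. The names were picked on these same values, so an order they share with a member follows from that choice. Over all 8 libraries miR-320-3p was closest to miR-214-3p (r = 0.88), and next to miR-501-3p (0.81), miR-28a-3p (0.80), miR-362-3p (0.80) and miR-574-3p (0.78). miR-214-3p was at 51.4 and 35.2 RPM in the AL and CR pools and averaged 52.2 and 29.7 RPM in mitochondria, the same order by diet in both fractions. miR-484 was closest to miR-148b-3p (0.96), miR-145a-3p (0.95), miR-328-3p (0.95), miR-423-3p (0.95) and miR-27b-3p (0.95). These averaged less in mitochondria as well, miR-148b-3p for example with 1343 and 1618 RPM in the pools and means of 719 and 391 RPM.

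Over the 6 mitochondrial libraries alone, miR-320-3p was closest to miR-674-5p (0.97), miR-6481 (0.96), miR-127-3p (0.94), miR-362-3p (0.93) and miR-146a-5p (0.92), of which miR-362-3p was also among its 5 closest over 8 libraries. For miR-484 these were miR-148b-3p (0.93), miR-10a-3p (0.93), miR-30c-2-3p (0.92), miR-497a-5p (0.92) and miR-29a-3p (0.91). miR-320-3p and miR-484 were not close to each other. Between them r was 0.15 over 8 libraries, rank 104 of 232 from the side of miR-320-3p, and 0.43 over the 6 mitochondrial libraries, rank 81.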

How the data were processed

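Small RNA libraries were made with standard Illumina protocols and mapped with Bowtie against mm9, per the labels' protocols and the submitters' processing notes. How reads were assigned to names is not given in the sources used here. The authors deposited RPM values (the column headers say tpm), 1 table per library, each summing to 1000000 with no scaling for length. Of all values 100% were whole multiples of the smallest in their library (within 0.01 read), which gave whole reads. 1 read was worth 0.308 to 0.934 RPM.

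Names that reached 1 RPM in 3 or more libraries were tested on log2(RPM + 1) by limma-trend, using limma 3.58.1 in R 4.3.3, and p-values were adjusted by Benjamini-Hochberg over all tested names (threshold 0.05). A fold change on this scale understates that of low miRNAs. edgeR 4.0.16 (quasi-likelihood, TMM) and DESeq2 1.42.0 on the recovered reads, other pseudocounts, filters and scales, and leaving out each library were alternatives. edgeR called 7 miRNAs between the diets in mitochondria. Single values used exact permutation tests (scipy 1.17.1). limma, edgeR and DESeq2 were tested on simulated data for the diet comparison in mitochondria and the fraction comparison, each with its default settings here. The interaction and the other alternatives were not simulated. Named miRNAs were the members, the opposite arm, the biogenesis lists, the 5 names closest in pattern, and miR-122-5p. The members and lists were chosen with earlier results of these data known.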

Additional observations from a re-analysis of the deposited data

How the results depend on the processing

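For miR-484 between the fractions all 18 alternatives kept the direction and the call. Both miRNAs kept their direction and stayed short of the threshold in the 15 alternatives of the diet comparison in mitochondria and the 14 of the interaction. The 7 alternatives of each ratio between them kept the direction, and none of them could reach an exact permutation p under 0.05 with so few libraries. miR-320-3p between the fractions changed sign, to -0.043, within AL and equally without the CR pool, and without 1 library it lay between -0.043 and 0.23. In the pools, TMM factors moved the log2 ratio to -0.75 for miR-320-3p and to -0.23 for miR-484, and the other 3 alternatives stayed within the counting intervals. The 2 calls between the diets in mitochondria became 10 with no filter, 8 with a filter of 10 RPM, 5 with TMM factors, 4 with miR-122 left out of the totals, 7 in edgeR and 11 in DESeq2. Leaving out 1 library gave 0 to 6 calls by limma, with 6 without AL replicate 1, 1 without AL replicate 3 or CR replicate 3, and 0 without AL replicate 2, CR replicate 1 or CR replicate 2 (43, 50 and 55 at an unadjusted p under 0.05; no other tool was run there). Between the fractions the 134 calls became 58 within AL and 64 within CR, and 58 to 140 without 1 library, lowest without the CR pool (58) and the AL pool (65). With no filter the interaction gave 129 calls, and the cause was not tested. The replicate numbers of the labels gave correlations of deviations of 0.36, 0.08 and 0.11 for the 3 same-numbered pairs. Pairs with different numbers lay between -0.29 and 0.22. The labels do not say whether same-numbered libraries were handled together, and this was not tested. With the replicate block there were 3 calls, and the adjusted p was 0.184 for miR-320-3p (-0.77) and 0.160 for miR-484 (-1.51). The pools carry no numbers to pair. Depth limits miR-484 in mitochondria, where CR replicate 3 held 2 reads, a level with an exact 95% interval of 0.226 to 6.75 RPM.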
